A study of Mus musculus with 10 samples.

Results

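Focal H3K27me3 regions are taken here as the called regions on chromosomes 1 to 19 that span at most 1500 bp. They were selected on their measured size, which the caller sets from the tags, so size, tag count and number describe them and are not tested against longer regions. The 10 region lists of the study held 115917 of them, out of 328681 regions on these chromosomes and 346394 on all chromosomes. The lists came from chromatin immunoprecipitation and sequencing (ChIP-seq) of histone H3 trimethylated at lysine 27 in bone marrow-derived macrophages of C57BL/6 mice, cells grown from marrow with 20 ng/ml M-CSF for 7 days. Wild type (WT) cells were Eif2ak3 fl/fl, so they carried the floxed alleles of the gene for the stress kinase PERK without a recombinase. Knockout (KO) cells were Eif2ak3 fl/fl x LysMcre, in which a Cre driven by the lysozyme M gene, active in myeloid cells, deletes the floxed part. Macrophages were left untreated (M0, 1 library per genotype), given LPS (20 ng/ml) together with interferon-gamma (50 ng/ml) for 24 h (M1, 2 libraries per genotype), or given 20 ng/ml IL-4 for 24 h (M2, 2 libraries per genotype). The M1 and M2 libraries are described as biological replicates, so p-values measure the spread between cultures. The labels do not state the ages of the mice, and the files hold no measure of how complete the deletion was.

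H3K27me3 is written by the methyltransferase complex PRC2 and goes with genes kept silent by Polycomb proteins. It usually lies in domains of many kilobases, such as those over Hox genes and over the master regulators of other lineages, while small patches are found at single promoters and inside or between genes. In macrophages, LPS with interferon-gamma switches on inflammatory genes and IL-4 switches on genes of tissue repair.

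A few focal regions sat right on a gene start and came back in several libraries. The 200 bases before such a start are printed for 5 genes to show what these places look like. They were picked among genes with a single listed start, after their values were seen, to span from 12 CpG dinucleotides (CG, in capitals) to none. Sequences are from RefSeq, build GRCm38.p6, which has the mm10 coordinates of the region files, and each is written 5′ to 3′ on the strand of its gene, ending at the base before the start. Pcp4l1 (Purkinje cell protein 4-like 1) is on the minus strand at chr1:171196269-171196468, Zfp804b (a zinc finger protein) on the minus strand at chr5:7344379-7344578, and Cxcl1 (a chemokine that draws neutrophils) on the plus strand at chr5:90891045-90891244. Zswim2 (a zinc finger protein) is on the minus strand at chr2:83941227-83941426, and Calm4 (a calmodulin-like calcium binding protein) on the plus strand at chr13:3837557-3837756.
Pcp4l1: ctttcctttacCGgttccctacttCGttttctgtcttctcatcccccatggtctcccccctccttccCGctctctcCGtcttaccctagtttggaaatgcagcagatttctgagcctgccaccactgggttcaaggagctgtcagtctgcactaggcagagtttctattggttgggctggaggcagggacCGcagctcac
Zfp804b: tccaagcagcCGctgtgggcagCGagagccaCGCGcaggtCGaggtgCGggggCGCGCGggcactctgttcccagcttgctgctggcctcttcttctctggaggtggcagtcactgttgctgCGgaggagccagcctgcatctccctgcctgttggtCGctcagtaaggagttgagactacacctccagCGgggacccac
Cxcl1: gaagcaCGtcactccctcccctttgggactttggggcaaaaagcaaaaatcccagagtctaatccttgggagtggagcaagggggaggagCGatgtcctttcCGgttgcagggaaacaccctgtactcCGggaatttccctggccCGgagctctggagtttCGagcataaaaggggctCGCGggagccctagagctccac
Zswim2: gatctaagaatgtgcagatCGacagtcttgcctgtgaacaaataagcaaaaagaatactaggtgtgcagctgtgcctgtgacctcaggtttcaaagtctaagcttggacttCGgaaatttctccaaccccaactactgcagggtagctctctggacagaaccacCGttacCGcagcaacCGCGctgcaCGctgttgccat
Calm4: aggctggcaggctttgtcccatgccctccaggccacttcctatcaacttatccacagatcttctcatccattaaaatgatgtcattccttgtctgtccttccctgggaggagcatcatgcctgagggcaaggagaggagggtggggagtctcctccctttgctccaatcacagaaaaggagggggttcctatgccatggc
The motif searched was CG, which reads the same on both strands. These stretches held 5, 12, 8, 7 and 0 CG in the order printed. Over all 20085 RefSeq starts of coding genes on chromosomes 1 to 19, the same 200 bases held a median of 9 CG, and 91.6% of them held at least 1.

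The signal over these starts was measured as the authors' Normalized Tag Count, the sequenced tags in a region scaled to 10 megatags per library. The region over the Pcp4l1 start was focal in 9 libraries, with counts of 46.8 in WT M0 and 53.1 in KO M0. Its counts were 16.1 and 15.1 in WT M1, 22.1 in KO M1 replicate 1, 12.7 and 12.2 in WT M2, and 19.4 and 28.9 in KO M2, and in KO M1 replicate 2 the start lay in a longer region. Pcp4l1 thus carried the mark in every library, and both M0 values were above all 7 of the others. The Zfp804b start was under a focal region in 8 libraries, at 38.8 and 30.0 in WT and KO M0, 15.3 and 13.1 in WT M1, 21.1 and 16.8 in WT M2, and 29.2 and 32.0 in KO M2. It had no region in either KO M1 library. Cxcl1, which LPS induces in macrophages, had a focal region over its start in WT M0 (33.7), KO M0 (19.7), KO M1 replicate 1 (14.7), WT M2 replicate 2 (17.6), KO M2 replicate 1 (24.8) and KO M2 replicate 2 (22.2). No region covered the Cxcl1 start in the other 4 libraries, which were 3 of the 4 M1 libraries and WT M2 replicate 1, and no longer region touched it in any. The Zswim2 start was focal in both M0 and all 4 M1 libraries, at 18.1 to 34.8, and in M2 it was in a longer region in 3 libraries and in none in WT M2 replicate 1. The Calm4 start lay under focal regions of 15.5 to 23.6 in both M0 libraries, WT M2 replicate 2 and both KO M2 libraries, and its first base was under no region in the other 5. The locus around it (chr13:3837666-3839102) was focal in 9 libraries, the M1 libraries included at 17.8 and 20.9 in WT and 15.0 and 15.3 in KO, and not called in WT M2 replicate 1.

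Per library the depth was 12.6 to 20.9 megatags, and 41.3% to 64.1% of the tags lay in regions. Both M0 libraries were shallower (12.6 and 14.5 megatags) than 7 of the 8 stimulated libraries and had longer estimated fragments (352 and 372 bp against 178 to 190 bp), so M0 is given as values. WT M1 replicate 1 and WT M2 replicate 1 stood apart on the X chromosome, which is outside the regions described here. Results are given with and without these libraries where they change. Of the fixed marker lists, 24 macrophage identity genes had a focal region within 5 kb in 0 to 4 genes per library, and 24 lymphoid markers in 4 to 11 genes. A histone mark does not measure expression, so these lists do not test the cell type.

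The number of focal regions differed most between M0 and the stimulated libraries. WT M0 held 13267 and KO M0 15328. The M1 libraries held 11206 and 11013 in WT and 10256 and 11292 in KO, and the M2 libraries 9265 and 10638 in WT and 11657 and 11995 in KO. Both M0 libraries were above all 8 stimulated ones, with 1052 and 1058 focal regions per megatag against 444 to 845. As a share of all regions, the focal ones made up 41.2% and 42.0% in M0 and 32.0% to 36.0% after stimulation. Fragment length and depth moved with this difference, and their part in it was not tested.

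**Figure D1:**
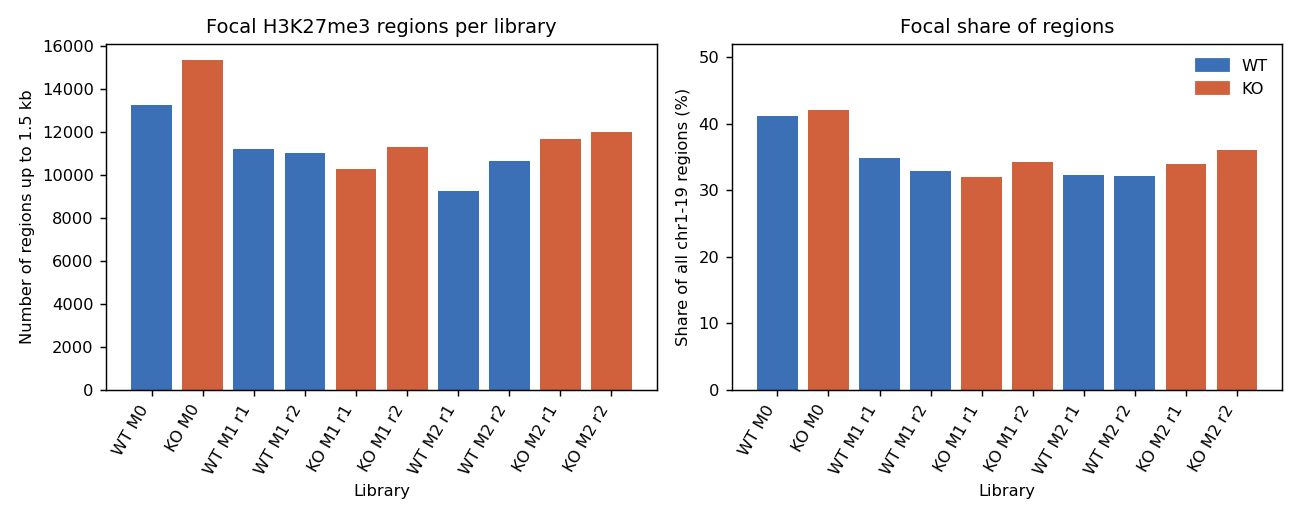
Number of focal regions (left) and their share of all regions on chromosomes 1 to 19 in percent (right), 1 bar per library, blue for WT and orange for KO. The M0 bars stand highest in both panels, at 13267 and 15328 regions and at 41.2% and 42.0%.

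KO libraries held 12106 ± 1916 focal regions and WT libraries 11078 ± 1440 (SD, n = 5 each). The difference of 1028 gave p = 0.111 in an exact two-sided permutation of genotype within state, and 0.522 after Benjamini-Hochberg adjustment over 13 tests. In M2 both KO libraries were above both WT libraries, with a mean difference of 1875 regions, and in M1 the mean difference was -335.5 with values that overlapped. Leaving out KO M1 replicate 1 gave a genotype difference of 1490 with unadjusted exact permutation p = 0.0278, the smallest that the permutation allows. KO then has fewer M1 libraries than WT and M0 weighs more in its mean, so that value mixes state with genotype. M2 and M1 held 10889 ± 1227 and 10942 ± 472 focal regions (SD, n = 4 each), a difference of -53.0 that was far inside the spread (exact permutation p = 0.943). Focal regions made up 35.7% ± 3.83 of all regions for KO libraries against 34.7% ± 3.79 for WT libraries (n = 5 each, SD; exact permutation p = 0.306, adjusted 0.522), and 33.6% ± 1.76 in M2 and 33.5% ± 1.31 in M1 (n = 4 each, SD; exact permutation p = 0.943).

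Focal regions were mostly single windows of the peak finder. Between 67.6% and 70.1% of them measured exactly 1000 bp, the window size, and the median was 1000 bp in every library, against 3821 to 5048 bp for longer regions. They made up 4.66% to 9.48% of the length under regions and held 2.997% to 4.76% of the tags in regions. The size limit of 1500 bp cut between a thinly and a more densely filled stretch of sizes. Each library had 260 to 532 regions in the last 100 bp below the limit, with median Normalized Tag Counts of 18.7 to 24.2, and 1109 to 1936 regions in the next 100 bp of size, with medians of 21.1 to 31.7.

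Most focal regions had tag counts near the threshold that the caller reports for a window. Their median Normalized Tag Count was 19.0 in WT M0, 17.9 in KO M0, 14.3 and 14.1 in WT M1, and 14.7 and 14.5 in KO M1. In M2 it was 13.9 and 14.8 in WT and 15.3 and 16.5 in KO. These medians stand for 23.4 to 29.0 sequenced tags per region, while the threshold for a window was 20 to 27 tags. On the normalized scale M0 was highest, and both KO M2 libraries were above all 6 of the other stimulated ones. In sequenced tags the medians were 29.0 and 26.0 in WT M2 and 28.1 and 23.4 in KO M2. The lowest focal counts were 10.8 to 12.7, under the threshold expressed per 10 megatags (12.9 to 15.9) in each library. Over the 8 stimulated libraries the median count had r = 0.973 and rho = 0.952 with the threshold per 10 megatags. The threshold bears on which windows enter a list, so the median and the threshold are not independent. Size and tag count are linked by the rule that selects these regions, so no test was made of focal against longer regions on this scale.

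**Figure D2:**
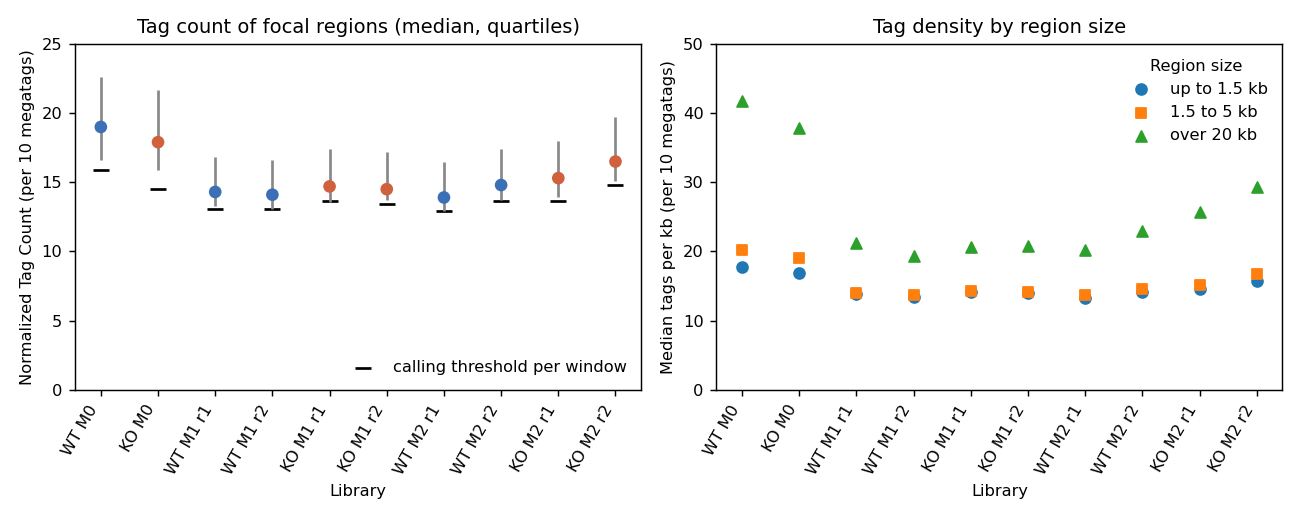
Left, median Normalized Tag Count of focal regions with quartiles, and the calling threshold of a window (black dash), per 10 megatags. Right, median tags per kb per 10 megatags for 3 size classes. Focal medians of 13.9 to 19.0 lie just above the thresholds of 12.9 to 15.9, and regions over 20 kb are densest in every library.

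Genotype and state gave no called difference in tag count. KO libraries had median counts of 15.8 ± 1.42 and WT libraries 15.2 ± 2.14 (n = 5 each, SD; exact permutation p = 0.33, adjusted 0.522). Within states KO minus WT was -1.1 in M0 (1 library each), 0.4 in M1 and 1.55 in M2, and over M1 and M2 alone 0.975 (exact permutation p = 0.0556). That p is the smallest that the M1 and M2 libraries alone allow. In M1 and in M2 both KO medians were above both WT medians. Without WT M0 the KO minus WT difference was 1.51 instead of 0.56 (exact permutation p = 0.0278). KO M0 then has no WT partner, so that value mixes state with genotype. Without both WT replicate 1 libraries the difference was -0.187. M2 libraries had 15.1 ± 1.08 and M1 libraries 14.4 ± 0.258 (n = 4 each, SD; exact permutation p = 0.286, adjusted 0.522). Without WT M2 replicate 1 that difference was 1.13 instead of 0.725 (exact permutation p = 0.0286).

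Focal regions were spread from places near longer regions to places far from any. The median distance to the nearest longer region was 10.9 and 10.0 kb in M0 and 7.49 to 8.42 kb in the stimulated libraries. Between 48.1% and 57.7% of focal regions were within 10 kb of a longer region, and 13.5% to 20.8% were more than 50 kb from any. No share of the genome at these distances is set beside them, so they do not show whether focal regions gather around longer ones. The shortest distance was 1.5 kb in each library, under the caller's minimum distance between peaks of 2500 bp, which bears on how close regions can lie. KO libraries had 55.1% ± 3.09 of focal regions within 10 kb and WT libraries 54.3% ± 3.61 (n = 5 each, SD; exact permutation p = 0.361), and 55.5% ± 0.975 in M2 and 56.7% ± 1.32 in M1 (n = 4 each, SD; exact permutation p = 0.2). Adjusted p was 0.522 for both.

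Focal regions were less often near coding genes than longer regions. A region was counted as near a gene when its midpoint fell in a protein-coding gene body or within 5 kb of it, which holds for 45.7% of the length of chromosomes 1 to 19. For focal regions the share was 47.6% and 46.4% in WT and KO M0, 42.3% and 41.6% in WT M1, 42.7% and 42.6% in KO M1, 43.2% and 42.2% in WT M2, and 42.7% and 43.8% in KO M2. For longer regions it was 60.2% and 58.2% in M0 and 49.3% to 54.7% in the stimulated libraries. Focal regions were thus under the genome share in the 8 stimulated libraries and above it in both M0 libraries, and longer regions were above it in all 10. The mean was 43.5% ± 1.95 for focal and 53.0% ± 3.63 for longer regions (SD, n = 10 each). Focal regions were lower in 10 of 10 libraries, by 9.5 percentage points on average (exact sign-flip permutation over libraries, p = 0.00195, the smallest it allows, adjusted 0.0254). The libraries share the genome, the gene positions and many loci, so they are not independent on gene position. That p covers only the spread between libraries. By size the share rose from a median over libraries of 42.7% for focal regions to 47.5% at 1.5 to 5 kb, 54.6% at 5 to 20 kb and 62.6% over 20 kb.

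With the distance of 5 kb, genotype and state again gave no called difference. KO libraries had 43.6% ± 1.65 of focal regions near genes and WT libraries 43.4% ± 2.41 (n = 5 each, SD; exact permutation p = 0.611, adjusted 0.722), and 43.0% ± 0.708 in M2 and 42.3% ± 0.476 in M1 (n = 4 each, SD; exact permutation p = 0.229, adjusted 0.522). With gene bodies alone the M2 minus M1 difference was 0.94 percentage points with unadjusted exact permutation p = 0.0286, the smallest that the permutation allows. By that measure the states did not overlap, at 35.7% to 37.4% in M2 and 35.2% to 35.6% in M1.

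**Figure D3:**
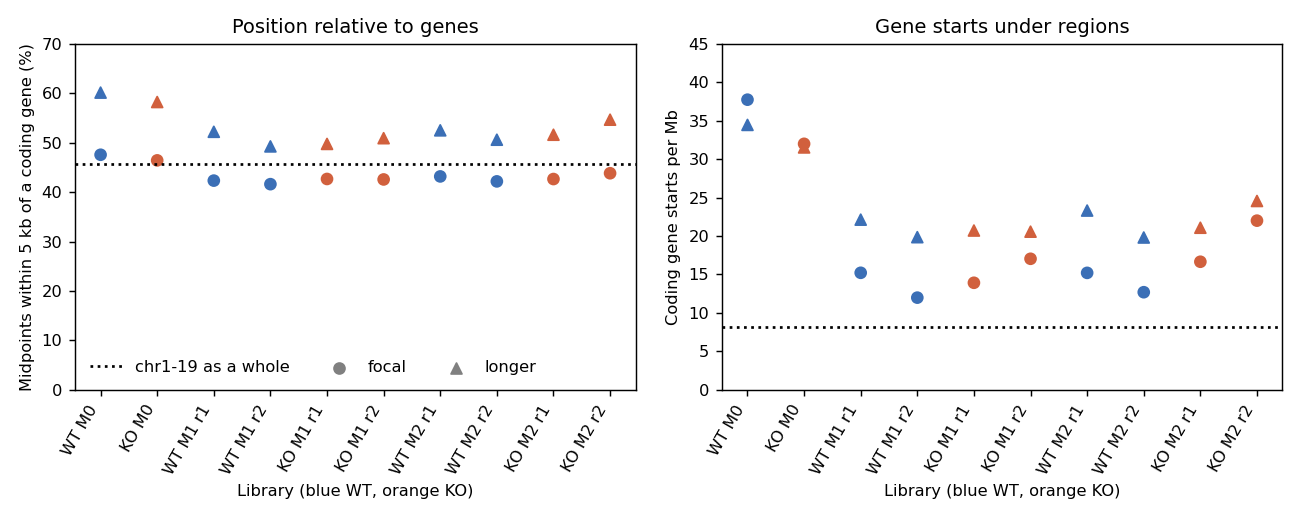
Left, share of region midpoints in or within 5 kb of a coding gene, for focal (circles) and longer regions (triangles) per library, with the share of chromosomes 1 to 19 as a dotted line at 45.7%. Right, coding gene starts per Mb of focal and longer regions, with the genome rate of 8.16 dotted. Circles lie under triangles in all libraries on the left.

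Gene starts were found in few focal regions. Per library 131 to 496 focal regions, or 1.21% to 3.74% of them, held a start, against a count of 9265 to 15328 regions in all. Per Mb of focal sequence there were 37.7 and 32.0 starts in WT and KO M0, 15.2 and 11.98 in WT M1, 13.9 and 17.0 in KO M1, 15.2 and 12.7 in WT M2, and 16.7 and 22.0 in KO M2. The rate over chromosomes 1 to 19 was 8.16 per Mb, and longer regions had 19.8 to 34.5. The focal rate was under that of longer regions in all 8 stimulated libraries and above it in both M0 libraries.

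The starts under focal regions were poorer in CpG than other starts. In the 300 bases around a start, the median ratio of observed to expected CG was 0.455 under focal regions (median over libraries, 0.407 to 0.516), 0.560 under longer regions (0.541 to 0.587) and 0.598 under no region (0.588 to 0.609). The share of starts with a ratio of at least 0.6 was 27.7% to 41.3% under focal regions, 44.1% to 48.8% under longer ones and 49.2% to 50.8% under none. The ranges of the 10 libraries did not overlap between focal and longer regions. GC content was 53.7% to 57.3% under focal regions and 59.3% to 60.7% under longer ones. These shares rest on 145 to 547 starts per library under focal regions, many of them the same starts, so they are a description.

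Few starts kept a focal region through the series. Of 20085 starts, 18647 were under a focal region in no library and 825 in 1 library, while 4 were in 8, 2 in 9 and 0 in all 10. The 2 in 9 libraries belonged to Pcp4l1 and Csrnp3, which encodes a nuclear protein of a small transcription factor family. The Csrnp3 start had focal counts of 13.4 to 20.8 in 9 libraries and no region in WT M0. The 4 in 8 libraries were those of Zfp804b, Aadat (an aminotransferase of tryptophan and lysine breakdown), Acvr1c (an activin receptor) and Rapgef5 (a guanine nucleotide exchange factor). Acvr1c was in a longer region in the other 2 libraries, so its start carried the mark in all 10. Its focal counts were 38.8 and 46.9 in M0 and 12.9 to 28.9 in the stimulated libraries.

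In the median pair of libraries most focal regions of the first were not found in the second. A region was counted as called in another library when at least 50% of its length lay under any region there. Over the 90 ordered pairs of libraries a median of 34.5% of focal regions were called (15.3% to 66.1%), 24.2% inside a longer region and 8.13% as a focal region again, and 11 pairs were above 50%. Loci called in a single library made up 10.5% to 26.0% of its focal regions. Regions covered 6.34% to 10.2% of chromosomes 1 to 19 per library, so the called share was 2.11 to 9.25 times the cover. Averaged over the other 9 libraries, 32.6% of focal regions were called (median over libraries, 25.4% to 50.3%), 53.9% of regions of 1.5 to 5 kb, 75.1% of those of 5 to 20 kb, and 93.2% of those over 20 kb. The 25% of focal regions with the highest tag counts were called in a median of 44.3% and the lowest 25% in 27.9%.

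The median share was much the same for replicates of a group as for other pairs. For the 8 replicate pairs the median was 34.6% (15.4% to 56.9%), for 16 pairs of the other genotype in the same state 32.8% (17.7% to 52.3%), and for 32 pairs of the other state 34.5% (15.4% to 51.8%). The pairs share libraries, so these are descriptions without a test. The lowest value between replicates was for WT M2 replicate 2 in WT M2 replicate 1, at 15.4%, and in reverse it was 56.2%. Among replicate pairs, KO M2 stood out for focal regions found as focal again, at 20.5% and 20.0% against 6.49% to 8.99% in the other replicate pairs. Such values were not particular to replicates. Focal regions of KO M2 replicate 2 were focal again at 25.4% in KO M0 and 19.5% in WT M0, and those of KO M2 replicate 1 at 17.1% and 12.8%. The M0 pair reached 66.1% of WT regions called in KO and 43.0% of KO regions called in WT, with 36.1% and 31.1% focal again.

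Among the stimulated libraries, focal regions of M0 were called most often in KO M2. The range was 55.4% to 64.7% in KO M2 (4 pairs), 25.9% to 53.2% in WT M2 (4 pairs) and 36.1% to 48.3% in M1 (8 pairs). KO M2 libraries had 9.94% and 8.67% of the genome under regions and WT M2 libraries 7.28% and 10.2%. Both KO M2 libraries had more of their tags in regions (61.0% and 61.3%) than WT M2 (41.3% and 56.5%), and the part of either in the sharing was not tested. Over the 8 stimulated libraries the share called in other libraries had r = 0.0345 with depth (exact permutation p = 0.928) and r = -0.191 with the percent of tags in regions (exact permutation p = 0.651), with rho of 0.19 and -0.0476 (exact permutation p = 0.665 and 0.935). Depth had r = -0.632 with the number of focal regions (exact permutation p = 0.1, rho = -0.524, p = 0.197) and r = -0.533 with their share (exact permutation p = 0.171, rho = -0.0952, p = 0.84). Among 5 relations computed, the fifth being the threshold with the median tag count given above, no adjusted p of these 4 was under 0.251. Without the 2 libraries farthest in x the values of r were 0.348, -0.623, 0.284 and 0.499, so those for depth with number and share changed sign.

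**Figure D4:**
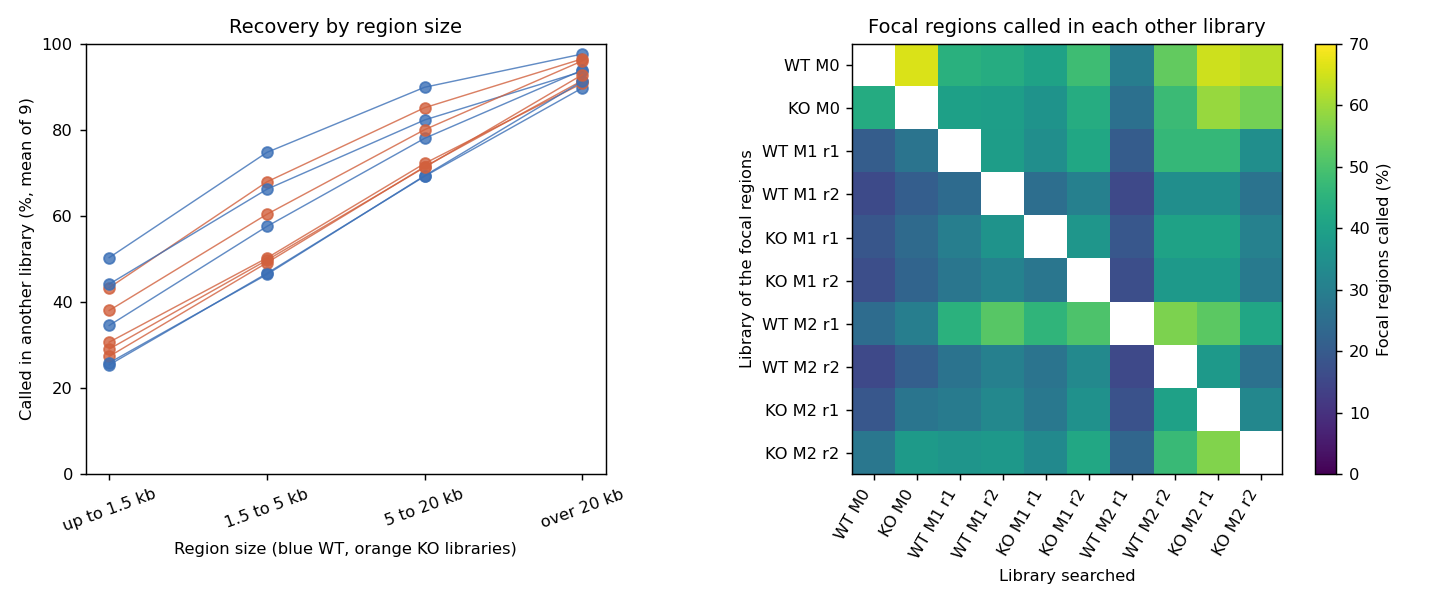
Left, percent of regions called in another library (mean of the other 9) against region size, 1 line per library. Right, percent of the focal regions of each library (rows) called in each other library (columns). Recovery climbs with size from 25.4% to 50.3% for focal regions to 89.8% to 97.7% over 20 kb, and the M0 rows are brightest in the M0 and KO M2 columns.

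The mean share called in other libraries did not separate genotypes or states. KO libraries had 33.7% ± 6.75 and WT libraries 36.1% ± 11.1 (n = 5 each, SD; exact permutation p = 0.556, adjusted 0.722), and 34.3% ± 8.36 in M2 and 29.5% ± 4.02 in M1 (n = 4 each, SD; exact permutation p = 0.343, adjusted 0.522).

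Overlapping focal regions of the 10 libraries were merged into 73696 loci with a median length of 1082.5 bp. A library was taken to have called a locus where its regions, focal or longer, covered 500 bp or more of it. Of these loci, 19262 (26.1%) were called in a single library and 3836 in all 10. A focal region was present in only 1 library at 64.2% of loci, in 2 at 22.1%, and in 8 or more at 55 loci. Of these 55 loci, 28 (50.9%) were within 5 kb of a coding gene, beside 44.98% of all loci. Of the 3836 loci called in all 10 libraries, 86.3% were focal in only 1 or 2 of them, so the same place was mostly part of a longer region elsewhere.

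At 12 loci a focal region was found in all 10 libraries, and several of them had tag counts far above those of other focal regions. The highest median was at chr3:5860143-5861187, with no coding gene within 5 kb. Its Normalized Tag Count was 781.5 in WT M0, 536.5 in KO M0, 162.2 and 115.9 in WT M1, 152.5 and 93.4 in KO M1, 134.3 and 226.5 in WT M2, and 281.1 and 364.8 in KO M2. M0 was highest and KO M2 next, without overlap with the other stimulated libraries. For comparison, the 99th percentile of focal regions was 21.3 to 42.5 per library.

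The next 3 loci lay in gene bodies and had the same order of M0 and KO M2 above the rest. The locus in Cmss1 and Filip1l (chr16:57391026-57392296), which are overlapping genes, went from 67.1 in KO M1 replicate 2 to 856.0 in WT M0. Cdk8, the kinase of the Mediator complex (chr5:146260654-146261905), went from 61.2 to 686.8 in the same libraries. Zc3h7a, which encodes an RNA-binding zinc finger protein (chr16:11143612-11144632), went from 41.1 to 389.2. Each of these loci, and Camk1d (20.1 to 115.3), which encodes a calcium-dependent kinase, was highest in WT M0 and had its 2 highest stimulated values in KO M2. At Cmss1 and Filip1l, Cdk8 and Zc3h7a the highest library was 12.8, 11.2 and 9.47 times the lowest, while the median of all focal regions went from 13.9 to 19.0.

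Other loci of the 12 moved less or in another order. Lars2, which encodes the mitochondrial leucyl-tRNA synthetase (chr9:123461471-123462722), had 137.9 and 93.2 in M0 and 37.0 to 80.5 after stimulation. The locus within 5 kb of Aida and Brox (chr1:183298819-183300122), in the body of Aida, was not highest in M0, with 55.1 and 44.2 there and 48.1 to 89.4 after stimulation. Kctd16, a subunit gene of the GABA-B receptor, had 19.8 and 21.7 in M0 and 14.8 to 34.5 after stimulation, which overlapped. The 4 remaining loci with no coding gene within 5 kb were on chromosomes 6, 8, 13 and 18, with medians of 26.4 to 42.1.

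Values of a ribosomal sequence moved in the same order as part of these loci. The region over Rn18s-rs5, annotated as a pseudogene of the 18S ribosomal RNA (chr17:39846354-39848202), is not focal, at 5985 to 6726 bp, and had Normalized Tag Counts of 23584 in WT M0 and 17040 in KO M0. It had 4055 and 2871 in WT M1, 3970 and 2154 in KO M1, 3275 and 6419 in WT M2, and 7196 and 10282 in KO M2. The order of the 10 libraries was the same for Rn18s-rs5 as for the loci at chr3:5860143-5861187, Cmss1 and Filip1l, Cdk8 and the locus on chromosome 18 without a gene. At Zc3h7a and Camk1d (Spearman's rho 0.988 each), Lars2 (0.952) and the locus on chromosome 8 (0.842) it was nearly the same, as a description over 10 libraries of which the M0 pair stands apart. It was less alike at the locus on chromosome 6 (0.539), and at Aida and Brox, Kctd16 and the locus on chromosome 13 M0 was not highest. Tags from repeated sequence were not examined here, and their part in these counts was not tested.

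**Figure D5:**
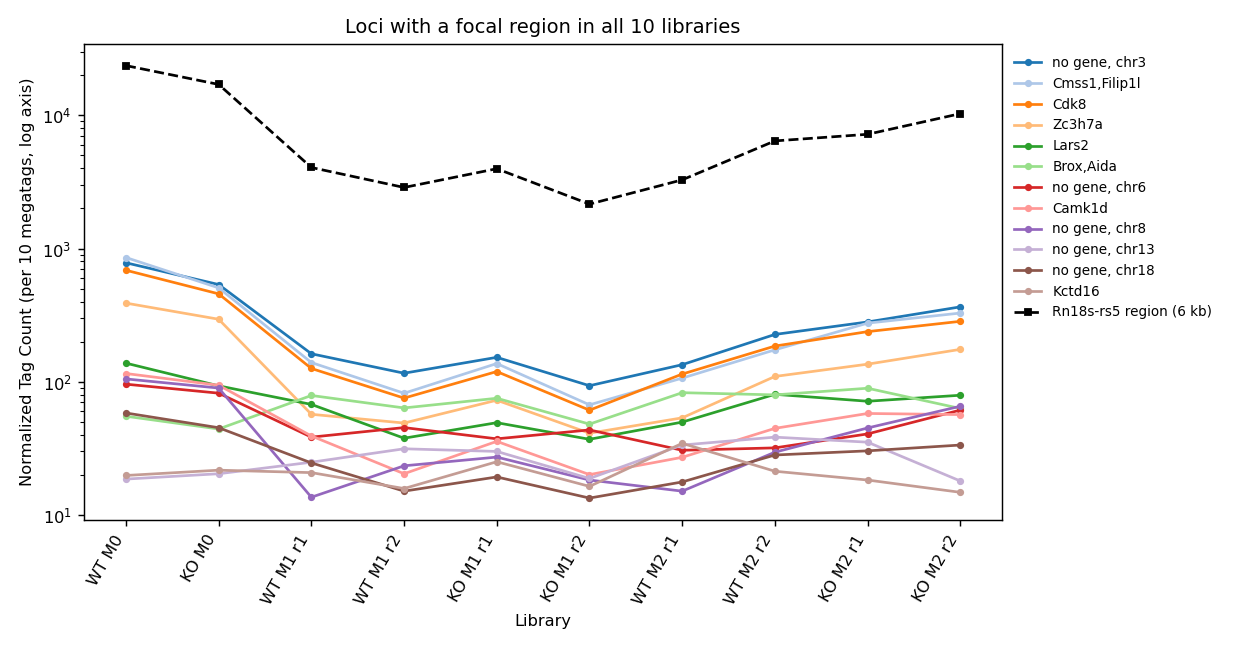
Normalized Tag Count per 10 megatags (log axis) in each library at the 12 loci with a focal region in all 10 libraries, named by the coding genes within 5 kb, with the longer Rn18s-rs5 region dashed. The upper lines peak in the M0 libraries and climb again in KO M2, while Aida and Brox, Kctd16 and the locus on chromosome 13 stay within 2.33 times from lowest to highest.

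Jarid2, which encodes a DNA-binding partner of PRC2, came just below, with a locus in its body (chr13:44869200-44870491) that was focal in 9 libraries and longer in KO M0. Its counts were 190.2 in WT M0, 36.7 and 22.6 in WT M1, 35.1 and 19.1 in KO M1, 32.3 and 62.6 in WT M2, and 82.4 and 92.6 in KO M2. WT M0 was highest and KO M2 next. In these 9 libraries the order of Jarid2 was the same as that of Rn18s-rs5, and the part of repeated sequence in it was not tested. Jarid2 was the sole gene of 21 measured for the H3K27 methylation machinery with a focal region within 5 kb in at least 8 libraries, a share of 4.76% against 4.81% of all coding genes.

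Over all 20665 coding genes a median of 13.7% per library had a focal region within 5 kb, 40.8% had a longer one, and 994 genes (4.81%) had a focal one in at least 8 libraries. Hox genes had a median of 0 of 39 near a focal region and 39 of 39 near a longer one, and developmental transcription factors 4 and 59 of 59. Lymphoid markers had 8 of 24 near a focal region and 19 near a longer one, and stromal and epithelial markers 6.5 and 16 of 20. Housekeeping genes had 0 of 18 and 1.

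For the activation programmes the medians were 10 of 39 IL-4 response genes (25.6%) and 4.5 of 37 LPS and interferon genes (12.2%) near a focal region, beside 13.7% of all genes. Macrophage identity genes had 3 of 24 (12.5%) and stress response and serine synthesis genes 1.5 of 25 (6%). Markers of granulocytes, erythroid and dendritic cells had 5.5 of 22. Besides Jarid2, the list genes near a focal region in at least 8 libraries were Pax5 (10 libraries), a B cell factor, and Cdh1, Flt1 and Pax7 (9 each), which encode E-cadherin, a VEGF receptor and a muscle stem cell factor. Cdh5, Ebf1, Pax8, Vwf and Zbtb46 followed with 8 each. All of these but Jarid2 and Vwf had a longer region within 5 kb in all 10 libraries as well, and Jarid2 had 1 in 1 library and Vwf in 7.

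Between M1 and M2, loci called in all 4 libraries of a state and none of the other were rare. Of 68927 loci called in at least 1 of the 8 libraries, 235 were called in all M1 and no M2 libraries, which is 0.341%, and 141 in all M2 and no M1 libraries, which is 0.205%. The shares over all 1 kb bins were 0.294% and 0.151%. Of the M2 loci 36.2% were also called in both M0 libraries, and of the M1 loci 2.98%. No share over all loci is set beside these or the later overlaps with M0. The loci were merged in part from M0 focal regions. Every one of the 8 stimulated libraries moved a count by over 1.5 times when left out. The M1 count was 580 without WT M1 replicate 1, 354 without WT M1 replicate 2, 417 without KO M1 replicate 1, 380 without KO M1 replicate 2, 441 without WT M2 replicate 2 and 362 without KO M2 replicate 1. The M2 count was 972 without WT M2 replicate 1, 218 without WT M2 replicate 2, 246 without KO M2 replicate 2, 308 without WT M1 replicate 1, 230 without WT M1 replicate 2 and 291 without KO M1 replicate 2.

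Few of these loci were focal in every library of their state. At 3 M1 and 13 M2 loci the region was focal in all 4 libraries, and those named here were chosen after their values were seen. Stk39, a kinase gene of ion transport control, had 16.6 and 14.3 in WT M1 and 13.9 and 15.8 in KO M1, and Sidt1 had 13.3 to 14.2. Neither had a region in M0 or M2. The third M1 locus, chr13:76026352-76028449, was not near a coding gene and had 13.8 to 19.3 in M1 and 18.6 in WT M0. Col11a1, which encodes a chain of cartilage collagen, had a focal region over its start (chr3:114030010-114031463) at 15.6 and 15.1 in WT M2, 24.3 and 23.9 in KO M2, and 30.5 and 22.1 in WT and KO M0. It was absent from all 4 M1 lists. Pla2r1, a phospholipase receptor gene, had 15.8 and 18.8 in WT M2 and 16.6 and 18.0 in KO M2, with no region elsewhere. The values of Stk39, Sidt1 and Pla2r1 were near the medians of all focal regions in these libraries, which were 13.9 to 16.5.

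The other loci with the highest tag counts in this comparison were mostly longer regions in the libraries of their state. Among the 8 such M1 loci with a gene were Ncald, Gdpd4 and St6gal1, each focal in a single M0 library (25.4, 25.2 and 21.7) and longer in all 4 M1 libraries. Tnfsf13b, the gene of the B cell survival factor BAFF, was focal in KO M1 replicate 2 alone (21.2) and longer in the other 3. Cd86 and Cd4 were the list genes near M1 loci, 2 of 327 (0.612%), beside 94 of 20665 coding genes (0.455%). Cd86, a costimulatory receptor, was focal in KO M1 replicate 2 (16.6) and Cd4, a T cell coreceptor, in WT M1 at 18.1 and 15.6 and in KO M1 replicate 2 at 14.8. For M2 the 8 loci included Col11a1, Syt10, Kalrn and Prkca. The start of Syt10, a synaptotagmin gene, was focal at 13.9 and 18.2 in WT M2 and 26.8 in KO M2 replicate 2, and longer in KO M2 replicate 1. Socs3, a feedback inhibitor of cytokine signalling, was the list gene near an M2 locus, focal in WT M2 replicate 1 (17.2) and longer in the other 3. That is 1 of 327 list genes (0.306%), beside 70 of 20665 coding genes (0.339%).

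In M2, 4015 of 55194 loci were called in both KO and no WT library (7.27%) and 2016 in both WT and no KO library (3.65%). The shares over 1 kb bins were 4.18% and 3.58%. KO loci were near a coding gene in 51.5% of cases and WT loci in 38.3%, beside 44.98% of all 73696 loci. Of the KO loci 1647 (41.0%) were also called in both M0 libraries. Of the WT loci 28 (1.39%) were, again with no share over all loci beside it. These are counts with no test of single loci, since permuting 2 libraries against 2 cannot reach p of 0.05. The KO count was 12148 without WT M2 replicate 2, 7783 without KO M2 replicate 1 and 9646 without KO M2 replicate 2. The WT count was 7811 without WT M2 replicate 1, 5126 without WT M2 replicate 2 and 4039 without KO M2 replicate 1. In each of these cases a group is left with 1 library.

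At 1049 of the KO loci the region was focal in both KO libraries, and at 383 of the WT loci in both WT libraries. Among the 10 KO loci of this kind with the highest counts near a gene was Atf3, a transcription factor gene of the stress response that PERK feeds (chr1:191184121-191185616, outside the gene body). It had 24.8 and 30.6 in KO M2 and no region in either WT M2 library, 15.6 in WT M1 replicate 1, and longer regions in both M0 libraries. The start of Chac1, another stress response gene, which encodes a glutathione-degrading enzyme (chr2:119349476-119351320), was focal in KO M2 replicate 2 (16.5), longer in KO M2 replicate 1 and in both M0 libraries, focal in KO M1 replicate 2 (16.9), and not called in WT M2. Atf3 and Chac1 were the 2 genes of the stress list of 25 near a KO M2 locus, which is 8% of the list and close to the 7.82% of all coding genes near such loci. Ahr, the dioxin receptor gene, chosen after its values were seen, had 27 and 20.4 in KO M2 and none in WT M2, but 73.8 in KO M0, 15.3 and 19.6 in WT M1, and longer regions in WT M0 and both KO M1 libraries.

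Other list genes near KO M2 loci came from several lists, among them Flt1, Pax7, Pax8, Krt18, Tbx5, Myh11 and Vwf. Cx3cr1, a chemokine receptor of monocytes, had 18.0 and 22.2 in KO M2, 17.3 in KO M0 and a longer region in WT M0. A locus within 5 kb of Itgax, the gene of CD11c, had 13.9 and 13.7 in KO M2, 22.8 in KO M0 and a longer region in WT M0. Lck, a T cell kinase gene, had 24.0 and 14.8 in KO M2 and no region in the other 8 libraries. In all, 23 of 327 list genes (7.03%) were near KO M2 loci, against 1616 of 20665 coding genes (7.82%). Near WT M2 loci were 4 list genes (1.22%), which were Chil3, Gata3, Gata6 and Tbx18, against 556 coding genes (2.69%). Chil3, an IL-4 induced secreted protein gene, was focal in WT M2 replicate 2 (17.9), longer in WT M2 replicate 1 and not called elsewhere. The 8 KO loci with the highest focal count near a gene, Gm3558 and Nme8 among them, and the 8 WT loci, Lifr and Dock3 among them, took those counts mostly from M0 or M1 libraries and were mostly longer regions in M2.

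In M1, 2065 of 55833 loci were called in both KO and no WT library (3.7%) and 1782 in both WT and no KO library (3.19%), against 2.31% and 1.82% of bins. Of these, 21.2% and 19.5% were also called in both M0 libraries, again with no share over all loci beside them. The start of Vopp1, which encodes a vesicle-associated protein, was among the KO loci, with a longer region in KO M1 replicate 1, 17.7 in replicate 2, and focal regions in both M0 and all 4 M2 libraries (19.6 to 52.7). Scara5, a ferritin receptor gene, was among the WT loci, longer in both WT M1 libraries and in M2, and focal in M0 at 61.8 and 51.1. Near KO M1 loci were 12 of 327 list genes (3.67%), against 850 of 20665 coding genes (4.11%). Near WT M1 loci were 6 list genes (1.83%), against 630 coding genes (3.05%). The same locus in Gata3 was among the WT M2 and the KO M1 loci, so genotype went both ways there. In Flt1, 1 locus was among the KO M2 and WT M1 loci and another among the KO M2 and KO M1 loci. Without KO M1 replicate 1 the KO count was 7569 and the WT count 3264, without KO M1 replicate 2 they were 6302 and 4686, without WT M1 replicate 1 they were 3878 and 7229, and without WT M1 replicate 2 they were 5444 and 6438.

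Focal regions were also set beside the authors' deposited tables of differential regions, which list regions of 401 bp. On chromosomes 1 to 19 of the authors' deposited table of KO enriched M2 regions, 356 of 1049 entries (33.9%) lay in a focal region of at least 1 KO M2 library. In focal regions of both lay 198, and in longer regions of both 673 (64.2%). In the authors' deposited tables of WT enriched M2, KO enriched M1 and WT enriched M1 regions the focal entries, by the same rule of at least 1 library, were 57 of 185, 29 of 93 and 29 of 49. For comparison, focal regions made up 32.0% to 36.0% of all regions in the stimulated libraries. No share over all regions that the authors tested is set beside these counts. The 3 focal entries with a false discovery rate under 0.05 were all in M2, 1 of 356 among KO enriched and 2 of 57 among WT enriched entries. In both of the authors' deposited M1 tables the smallest false discovery rate of a focal entry was 0.999851. Most focal entries are thus not called differential at that rate. In the authors' deposited table the entry near Ift122, which encodes a transport protein of cilia (chr6:115919888-115920288), was 3.43 on the log2 scale higher in KO, at a false discovery rate of 0.00699. That place was focal in KO M2 at 22.9 and 18.3, in KO M0 at 27.3 and in WT M1 replicate 2 at 13.6, was in a longer region in WT M0 and was not called in WT M2. The authors' deposited table of WT enriched M2 regions gave log2 folds of -3.94 and -4.03 for the other 2, on chromosomes 13 and 18 with no coding gene within 5 kb. Since the authors' lists and the region lists come from the same libraries, this overlap is no independent support.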

How the data were processed

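H3K27me3 ChIP-seq of 10 macrophage libraries was used as deposited region lists, 1 per library. Per the file headers, the authors called regions with HOMER findPeaks in region mode without an input library, with windows of 1000 bp, a minimum distance between peaks of 2500 bp and a false discovery rate set to 0.001. The authors' Normalized Tag Count is a signal per 10 megatags, per the file headers. Their deposited score was used to rank regions in an alternative, and the deposited clonal fold change, a ratio, was carried along without a result. The submitters' processing notes list Bowtie2 2.4.2, SAMtools 1.10, deepTools 3.5.1, HOMER 4.8, DiffBind 2.0.2 and build mm10. The authors' deposited differential tables hold log2 folds and p-values with false discovery rates. Neither their scaling nor their model is given in the sources used here.

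Depth was 12.6 to 20.9 megatags per library, and the header's threshold was 20 to 27 tags per window. Genes and starts came from RefSeq tables of GRCm38.p6. No genome was used, so regions were placed against gene bodies and starts, not exons, introns or untranslated regions. Library values were compared with exact two-sided permutation tests, 13 in all, with Benjamini-Hochberg adjustment. Genotype was permuted within state (72 arrangements, smallest p 0.0278), M2 against M1 over 8 libraries (70 arrangements, smallest p 0.0286), and focal against longer by sign over 10 libraries (1024 arrangements).

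The members, lists and tests were chosen with earlier results of these data known. Genes named in the text are those at the 12 loci focal in most libraries, at the exclusive loci with the highest median focal tag count near a coding gene (8 per direction between M1 and M2 and between genotypes in M2, 4 per direction in M1), and list genes near such loci or near focal regions in at least 8 libraries. Not all of these are spelled out, and other names were chosen after their values were seen. No pair of libraries shared more than 12 identical regions. The scripts were tested on simulated data. Python 3.11.15, numpy 2.4.6, pandas 2.3.3, scipy 1.17.1 and matplotlib 3.10.9 were used. Alternatives changed the size limit, distances, overlap, score, depth scaling and the libraries kept.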

Additional observations from a re-analysis of the deposited data

Results flagged for a closer look

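Regions of up to 1500 bp on the X chromosome, which the comparisons do not use, numbered 3236 in WT M1 replicate 1 and 2378 in WT M2 replicate 1. The other 8 libraries held 77 to 134, and the highest M0 library, the untreated reference, held 134. The cause was not tested.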

How the results depend on the processing

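Of 301 alternative values, 243 kept their direction and their side of the threshold, or for counts stayed within 1.5 times. Some settings, the replicate block among them, allow too few arrangements to reach p of 0.05. For those the side of the threshold was fixed in advance. The lower share of focal regions near genes held under every setting tried for it. With a size limit of 2000 bp the M2 minus M1 difference in number was 62.25 and 6157 loci were called in all 10 libraries. With the upper 50% of regions by score the KO minus WT difference near genes was -0.047 and the M1-only count 148. Number per megatag gave 62.0 for M2 minus M1. With gene bodies alone the M2 minus M1 difference near genes was 0.94 (exact permutation p = 0.0286). Without both WT replicate 1 libraries the M2 minus M1 number was 576, the KO minus WT tag count -0.187 and the KO minus WT share near genes -0.158. That setting gave counts of 759 for M1 only, 1405 for M2 only, 7338 for WT M2 only, 3710 for KO M1 only and 6990 for WT M1 only. The cause of these shifts was not tested.

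Leaving out each replicate in turn gave KO minus WT ranges of 222.2 to 1575 for number, -0.637 to 2.58 for share, 0.03 to 1.51 for tag count, -0.447 to 1.30 near genes, -0.763 to 2.06 near longer regions and -4.92 to 0.606 called in other libraries. M0 has 1 library per genotype, so leaving out either leaves the states unbalanced between genotypes, and both ends of the range for number come from this. Leaving out an M1 or M2 library unbalances the states between genotypes as well. With M1 and M2 libraries alone the difference in number was 769.5. M2 minus M1 ranges were -421.75 to 488.25 for number, -0.704 to 0.556 for share, 0.267 to 1.13 for tag count, 0.375 to 0.924 near genes, -1.80 to -0.823 near longer regions and 1.58 to 7.54 called in other libraries. Focal minus longer near genes was -9.76 to -9.15. Counts were 231 to 580 for M1 only, 138 to 972 for M2 only, 3776 to 12148 for KO M2 only, 1858 to 7811 for WT M2 only, 1988 to 7569 for KO M1 only, 1707 to 7229 for WT M1 only, and 3854 to 4285 for all 10 libraries.

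Calls at focal loci showed no pairing by replicate number: correlations of deviations over 73696 loci were -0.0435, -0.0212, -0.0109 and 0.0125. These loci leave out the X chromosome. The many X chromosome regions were shared by WT M1 replicate 1 and WT M2 replicate 1, which have the same genotype and replicate number. Whether equal replicate numbers mark a shared source is not stated and was not tested. With the replicate block the exact permutation p for number was 0.188 for KO minus WT and 1.0 for M2 minus M1. The block allows too few arrangements to reach p of 0.05. None of the results it was applied to was under 0.05 without it, so no call could change. The median focal region held 23.4 to 29.0 tags, against thresholds of 20 to 27, so counting error is large for a single region.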
